A study of Mus musculus with 5 samples.

Results

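Secreted Wnt antagonists are extracellular proteins that keep Wnt ligands from reaching or using their receptors, and 9 of them were followed by name among the 29818 genes measured in cells of the mouse knee growth plate region: Sfrp1, Sfrp2, Sfrp4, Sfrp5 and Frzb, Wif1, Notum, Dkk2 and Dkk3. The 9 genes were taken by name and not by a threshold on a measured value, but with earlier results of these data known, and other antagonists such as Dkk1 and Dkk4 are given separately. Cells came from 5 littermate pups, 2 WT and 3 mutant, labelled C57BL/6J (the knock-in was made on that strain, and the Cre line came from a mixed B6 and SJL background, later crossed to it), and the mutant pups carried 1 conditional knock-in allele of the p.R594H change in the calcium channel gene Trpv4, recombined by a Cre that the Col2a1 promoter drives in chondrocytes. Each pup gave its own library, so a class of cells has 2 WT and 3 mutant values. The age is given as postnatal day 5 in the sample labels and as day 3 in the description of the study, and the labels do not state which of the alleles, the Cre transgene included, the WT littermates had. Cells of the proximal tibial and distal femoral epiphyses were released with collagenase and trypsin and captured with BD Rhapsody, a microwell system that tags each captured transcript with a unique molecular identifier (UMI).

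Wnt ligands bind a Frizzled receptor together with the co-receptor Lrp5 or Lrp6, and the resulting stabilization of beta-catenin lets factors of the TCF/LEF family activate their target genes. The antagonists act at different steps of this path. The secreted frizzled-related proteins (Sfrp1, Sfrp2, Sfrp4, Sfrp5 and Frzb, also called Sfrp3) and Wif1 bind the ligand itself, Notum removes the lipid that a Wnt ligand needs for receptor binding, and Dkk2 binds the Lrp co-receptors, whereas Dkk3 is a divergent member of the Dickkopf family whose role in the pathway is less clear. In cartilage, Wnt signalling favours hypertrophy and bone formation over the chondrocyte state, and Frzb was first isolated from cartilage.

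Barcodes were kept at 200 to 6000 genes and at most 10% mitochondrial UMIs, which left 82516 cells, 13814 to 19133 per pup, and the median cell held 6000 to 9261 UMIs, with higher medians in the 2 WT libraries (8521 and 9261) than in the 3 mutant libraries (6000 to 7016). The labels call all cells chondrocytes, but fibroblasts, leukocytes, endothelial cells and others were present, and cells were therefore placed by marker thresholds in counts per 1000000 UMIs of the cell (CPM). Cells with Col2a1, the main cartilage collagen, of at least 20000 CPM were chondrocytes, and among them 1154 were hypertrophic by Col10a1 and Ihh, 13695 articular by Prg4 (lubricin, at least 2000 CPM), 22308 resting by Ucma (at least 2000 CPM) and 10647 were other chondrocytes. Of the remaining cells, 3041 had high Prg4 and were called superficial, and 24734 were fibroblasts by Col1a1. Levels below are the CPM of a gene in the summed UMIs of a class in a pup, so fewer cells with a transcript and fewer transcripts per cell cannot be told apart in them. Pairs of libraries shared 3 to 7 cell barcodes. Trpv4 itself was at 160 and 102 CPM in the WT pups and at 90.3, 148 and 175 CPM in the mutant pups, which does not check the labels because the knock-in changes a codon. Xist was found in 89.8% and 88.4% of cells of mutant pups 3 and 4 and in at most 0.174% in the other pups, and these 2 pups are both mutant.

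Wif1 marked the articular side of the cartilage. Its level in articular chondrocytes was 1638 and 1846 CPM in the WT pups and 1774, 1504 and 1716 CPM in the mutant pups, and in superficial Prg4-high cells it was 1067 to 1443 CPM. These were the highest and the next highest of the 10 classes ranked, which had at least 10 cells in every pup and did not include the 477 erythroid cells, and the ranges of the pups did not overlap between them or with the next class, the fibroblasts (511 ± 93.6 CPM, mean ± SD, n = 5 pups). Resting chondrocytes were at 220.3 ± 30.0 CPM and other chondrocytes at 229.9 ± 30.2 CPM, ranges that overlapped. Hypertrophic chondrocytes were the lowest of the 10 classes, at 46.1 ± 11.3 CPM, below leukocytes (82.6 ± 11.4 CPM), which are not expected to make any of these genes and serve here as the background of transcripts shed into the cell suspension. Erythroid cells, which are not expected to make them either, had higher levels, at 496 ± 149 CPM of Wif1, 143 ± 41.2 CPM of Dkk3, 138 ± 82.5 CPM of Sfrp2, 103 ± 47.7 CPM of Sfrp1, 84.5 ± 42.7 CPM of Frzb, 26.5 ± 25.8 CPM of Sfrp5, 21.7 ± 16.1 CPM of Notum, 12.5 ± 13.6 CPM of Dkk2 and 2.34 ± 2.66 CPM of Sfrp4. The erythroid class was set by hemoglobin genes totalling at least 50000 CPM, before the Col2a1, Prg4 and Col1a1 rules, so it can hold mixed cells. Mean Wif1 was lower in endothelial cells (104 ± 37.4 CPM) and pericytes (65.4 ± 23.3 CPM). Whether the erythroid level overstates the background was not tested. The leukocyte level is the lower of these 2 backgrounds, and levels between the 2 are not shown to be the cells' own. Examples are Sfrp1 and Dkk3 in other chondrocytes, Sfrp5 in articular chondrocytes, and Sfrp2 and Wif1 in resting chondrocytes. Wif1 in fibroblasts (381 to 618 CPM per pup) overlapped with erythroid cells (261 to 649 CPM) and is not shown to be their own either. The same holds for Sfrp2, Sfrp4 and Dkk2 in fibroblasts and for Sfrp5 in resting chondrocytes. It also holds for Sfrp1, Frzb, Dkk3 and Notum in articular chondrocytes, and the list is not complete. Sfrp2 in mutant pup 5, for example, was at 146 CPM in fibroblasts and 185 CPM in erythroid cells. Articular chondrocytes, 16.6% of all cells kept, held 46.1% of all Wif1 UMIs, 39.4% to 54.2% per pup.

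**Figure D1:**
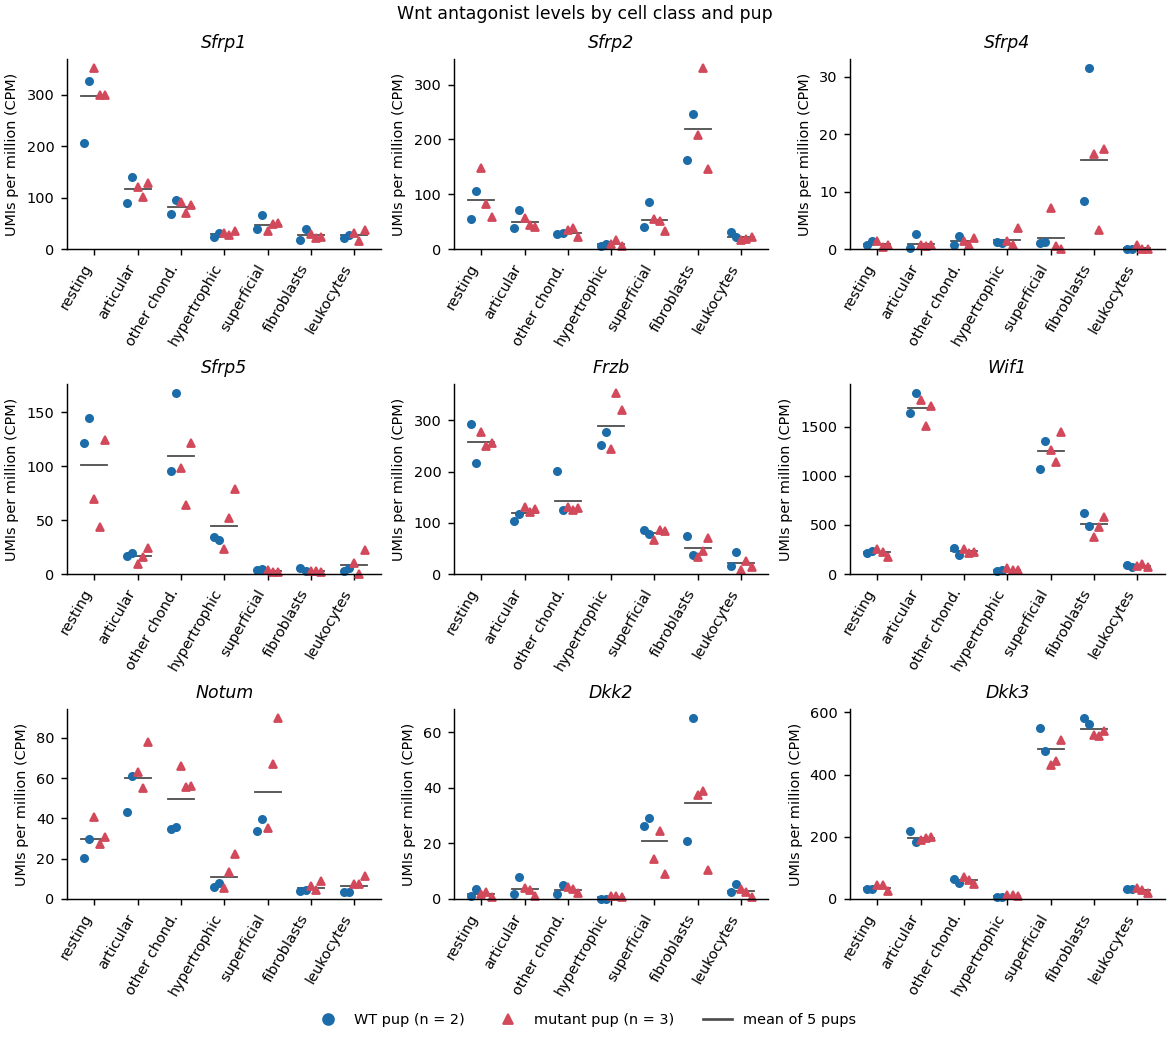
Each panel shows 1 gene, with its level in CPM (linear axis from 0) in the summed UMIs of 7 cell classes. Circles are the 2 WT pups, triangles the 3 mutant pups and bars the means of 5 pups; Wif1 lay between 1504 and 1846 CPM in articular chondrocytes and Sfrp1 between 206 and 352 CPM in resting chondrocytes, both above their levels in each other class shown.

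Sfrp1, Frzb and Sfrp5 had their highest levels of the 10 ranked classes in chondrocytes, and the 86 Schwann cells, too few to rank, had 942 ± 285 CPM of Sfrp1 and 105 ± 64.4 CPM of Sfrp5. Sfrp1 was at 206 and 327 CPM in the WT pups and 352, 299 and 299 CPM in the mutant pups in resting chondrocytes. The lowest resting value, in WT pup 1, exceeded every articular value (89.5 to 140.3 CPM) and every value of other chondrocytes (68.9 to 94.9 CPM). In hypertrophic chondrocytes (29.6 ± 4.20 CPM) and fibroblasts (18.6 to 39.2 CPM) Sfrp1 was as low as in leukocytes (26.6 ± 8.35 CPM). Frzb was at 292 and 216 CPM in the WT pups and 277, 251 and 256 CPM in the mutant pups in resting chondrocytes and at 252, 277, 244, 354 and 321 CPM, in pup order, in hypertrophic chondrocytes. These classes overlapped with each other, and the resting values lay above those of other (125 to 201 CPM) and articular (104 to 131 CPM) chondrocytes. Of the 9 members, Frzb was the one with its highest mean in hypertrophic cells. Sfrp5 was at 122 and 145 CPM in the WT pups and 69.6, 43.9 and 125 CPM in the mutant pups in resting chondrocytes and at 95.8, 168, 98.0, 64.3 and 121 CPM in other chondrocytes. The 2 classes did not separate, the pups differed widely within each, and mutant pup 4 was lowest in both. Articular chondrocytes were lower in every pup (9.55 to 23.9 CPM), and fibroblasts (3.01 ± 1.56 CPM) and superficial cells (3.01 ± 1.14 CPM) did not exceed leukocytes (8.16 ± 8.73 CPM).

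Sfrp2, Sfrp4, Dkk2 and Dkk3 had higher mean levels in fibroblasts than in any of the 4 chondrocyte classes. Sfrp2 in fibroblasts was at 163 and 246 CPM in the WT pups and 208, 330.4 and 146 CPM in the mutant pups, and among chondrocytes it was highest in resting cells (55.7 to 147 CPM), where mutant pup 3 overlapped with the fibroblasts of mutant pup 5. Dkk3 in fibroblasts was at 582 and 563 CPM in the WT pups and 526, 524 and 539.7 CPM in the mutant pups. Its spread over pups was small beside its level, superficial cells followed at 482 ± 48.3 CPM and articular chondrocytes at 197 ± 13.6 CPM, and resting (35.8 ± 7.56 CPM) and hypertrophic (8.95 ± 2.94 CPM) chondrocytes lay near or below leukocytes (29.5 ± 6.99 CPM). Dkk2 in fibroblasts was at 20.9 and 65.1 CPM in the WT pups and 37.5, 38.9 and 10.4 CPM in the mutant pups. WT pup 2 was highest and mutant pup 5 lowest, endothelial cells had a similar level (46.0 ± 13.9 CPM), and the 4 chondrocyte classes stood at 0.597 to 3.58 CPM, near or below leukocytes (3.00 CPM). Sfrp4 in fibroblasts was at 8.44 and 31.5 CPM in the WT pups and 16.6, 3.32 and 17.4 CPM in the mutant pups. Its values ran over a wide range, from mutant pup 4 to WT pup 2, the small class of osteoblast lineage cells (312 cells) was higher in 4 of 5 pups (19.2 to 90.6 CPM), and the chondrocyte classes had 0.902 to 1.66 CPM.

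Notum, the member that removes the lipid of a Wnt ligand, was at 42.9 and 60.8 CPM in the WT pups and 63.0, 55.1 and 77.7 CPM in the mutant pups in articular chondrocytes. Superficial cells (53.1 ± 24.6 CPM) and other chondrocytes (49.7 ± 13.8 CPM) overlapped with them, and resting chondrocytes (29.8 ± 7.36 CPM) were lower than articular chondrocytes in each of the 5 pups. Fibroblasts (5.64 ± 2.02 CPM) did not exceed leukocytes (6.65 ± 3.37 CPM). The 3 leading classes of Notum thus did not separate.

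By the GENCODE M21 annotation of GRCm38 the 9 genes are protein coding and lie on 8 chromosomes: Sfrp1 at chr8:23411502-23449632, Sfrp2 at chr3:83766321-83774316, Sfrp4 at chr13:19623104-19632994, Sfrp5 at chr19:42197971-42202252, Frzb at chr2:80411970-80447625, Wif1 at chr10:121033960-121100650, Notum at chr11:120653788-120661175, Dkk2 at chr3:132085292-132180304 and Dkk3 at chr7:112116017-112159057. Sfrp5, Frzb, Notum and Dkk3 are on the minus strand. RefSeq promoter sequence (GRCm38.p6) was at hand for Sfrp2, Sfrp5, Frzb, Wif1 and Dkk2. The stretches upstream of the first annotated start are shown for 3 members whose levels were highest in different classes: Wif1 (articular chondrocytes), Sfrp5 (other and resting chondrocytes) and Dkk2 (endothelial cells and fibroblasts). They are genomic sequence 5′ to 3′ on the strand of the gene, end at the base before the gene, and capitals mark matches, on either strand, to the TCF/LEF core CTTTGA, the SOX core AACAAT, the E-box CACGTG, the GC box GGGCGG or the TATA box TATAAA.
Wif1, chr10:121033754-121033959, plus strand: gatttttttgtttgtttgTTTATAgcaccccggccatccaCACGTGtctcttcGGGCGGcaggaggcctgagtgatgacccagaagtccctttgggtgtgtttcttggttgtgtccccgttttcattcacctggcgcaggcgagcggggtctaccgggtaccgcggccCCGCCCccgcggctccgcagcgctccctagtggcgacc
Sfrp5, chr19:42202253-42202502, minus strand: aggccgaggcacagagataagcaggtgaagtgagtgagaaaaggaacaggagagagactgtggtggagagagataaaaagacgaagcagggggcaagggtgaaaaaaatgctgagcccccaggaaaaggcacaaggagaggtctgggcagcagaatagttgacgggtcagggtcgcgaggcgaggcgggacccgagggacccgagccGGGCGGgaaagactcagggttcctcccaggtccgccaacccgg
Dkk2, chr3:132085042-132085291, plus strand: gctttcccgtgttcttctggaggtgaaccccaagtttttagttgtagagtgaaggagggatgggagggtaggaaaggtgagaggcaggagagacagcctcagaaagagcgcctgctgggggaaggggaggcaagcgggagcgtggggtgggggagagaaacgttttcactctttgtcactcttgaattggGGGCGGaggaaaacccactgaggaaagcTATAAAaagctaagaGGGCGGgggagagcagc
The Wif1 stretch held an E-box match, 2 GC box matches and a TATA box match on the opposite strand, at 188 bases before the start. The Sfrp5 stretch held 1 GC box match, and the Dkk2 stretch 2 GC box matches and a TATA box match 32 bases before the start, the place where a TATA box usually lies. No stretch held the TCF/LEF or the SOX letters. Of 32851 RefSeq promoters, 13.8% held the TCF/LEF letters, 9.42% the SOX letters, 6.02% the E-box, 32.7% the GC box and 12.4% the TATA box in the same 250 bases. In the first 206 of these bases, the length of the Wif1 stretch, 4.50% held the E-box, 25.8% the GC box and 9.39% the TATA box. These shorter windows leave out the bases next to the RefSeq start, as does the Wif1 stretch, which ends at an earlier annotated start. The matches describe letters, not bound sites.

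Differences between classes were tested on the summed UMIs with the quasi-likelihood test of edgeR, with the pup as a block and Benjamini-Hochberg adjustment over all genes tested. Between articular and resting chondrocytes 8 of the 9 members passed an adjusted p of 0.05, 4 higher and 4 lower in articular cells, where 55.1% of all 15323 genes tested passed (26.8% higher, 28.2% lower), and the members' share was not tested against it. Wif1 was higher in articular cells by a log2 difference of 2.93 ± 0.10 (SE; 95% interval 2.68 to 3.17; adjusted p = 1.37e-06) and Dkk3 by 2.46 ± 0.17, adjusted p = 1.22e-04. Notum (0.99 ± 0.11, adjusted p = 2.01e-04) and Dkk2 (0.88 ± 0.14, adjusted p = 2.21e-04) were higher too, although Dkk2 had counts near background in both classes. Sfrp5 was lower in articular cells by a log2 difference of -2.56 ± 0.25, adjusted p = 7.75e-04, and Sfrp1 (-1.37 ± 0.08, adjusted p = 2.21e-06), Frzb (-1.13 ± 0.08, adjusted p = 6.68e-06) and Sfrp2 (-0.80 ± 0.17, adjusted p = 0.0114) were lower with it. These are differences in level, and Wif1 and Sfrp5, whose proteins both bind the ligand, differed in opposite directions. Sfrp4 had -0.09 ± 0.33 (adjusted p = 0.838).

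**Figure D2:**
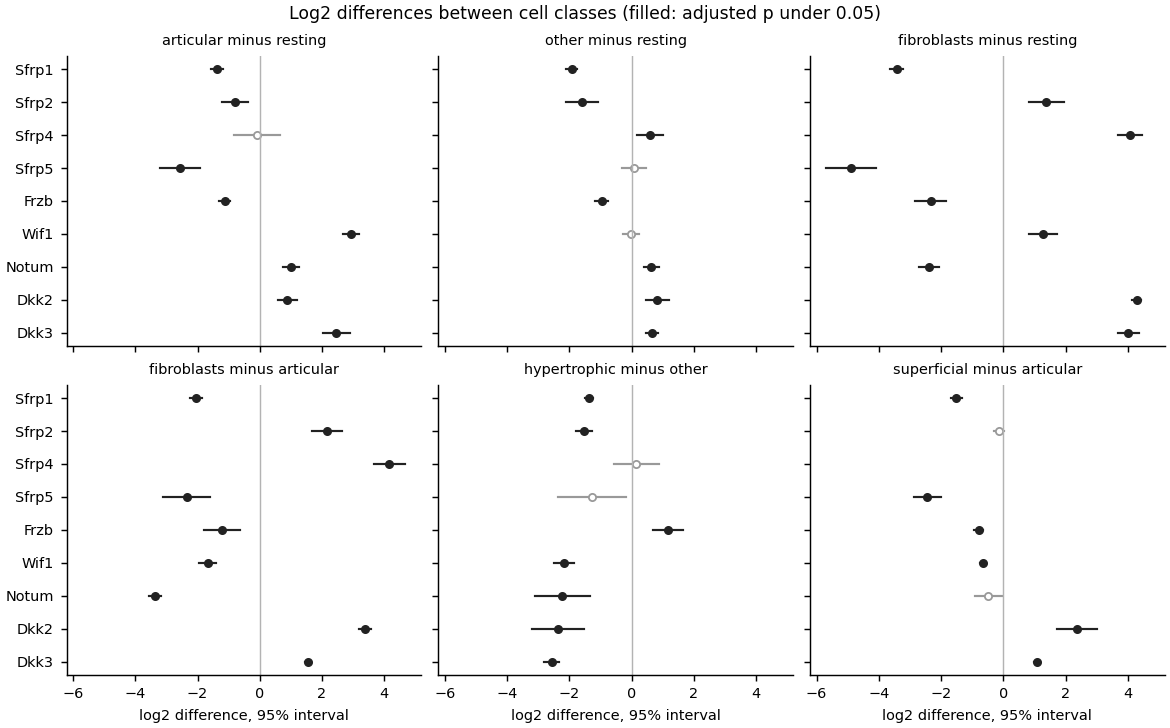
Points are log2 differences between summed UMIs of 2 cell classes over 5 pups, bars their 95% intervals, and filled points have an adjusted p under 0.05 (edgeR). Wif1 and Sfrp5 lie on opposite sides of 0 in articular minus resting chondrocytes (2.93 and -2.56), and Frzb alone lies above 0 with a filled point in hypertrophic minus other chondrocytes (1.17).

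Other chondrocytes, which lack both the Ucma and the Prg4 level, differed from resting chondrocytes in 7 members (4 higher, 3 lower; of 16263 genes 56.4% passed, 29.6% higher and 26.8% lower). Sfrp1 was lower by -1.93 ± 0.07, adjusted p = 3.67e-07, Sfrp2 by -1.59 ± 0.20, adjusted p = 0.00201 and Frzb by -0.96 ± 0.09, adjusted p = 1.51e-04, all as log2 differences. Dkk3 (0.66 ± 0.08, adjusted p = 1.64e-04), Notum (0.64 ± 0.10, adjusted p = 0.00213) and Dkk2 (0.83 ± 0.17, adjusted p = 0.00136) were higher. Dkk2, however, was near or below leukocytes (3.00 CPM) in both classes, at 1.86 CPM in resting and 3.35 CPM in other chondrocytes. The 2 members that did not pass, Wif1 (-0.02 ± 0.10, 95% interval -0.28 to 0.23) and Sfrp5 (0.08 ± 0.15, 95% interval -0.32 to 0.47), had intervals that exclude a change of more than 1.5-fold. Sfrp5 passed when every class threshold was doubled (0.37 ± 0.06, adjusted p = 4.64e-04). Sfrp4, at 15 to 100 UMIs per pup and class, was higher by 0.59 ± 0.20, adjusted p = 0.0208, and it no longer passed without WT pup 2 (0.58 ± 0.25, adjusted p = 0.0692), without mutant pup 4 (0.55 ± 0.21, adjusted p = 0.0503), without mutant pup 5 (0.41 ± 0.20, adjusted p = 0.106) or in DESeq2 (0.59 ± 0.28, adjusted p = 0.081). The Sfrp4 difference was larger with doubled class thresholds (1.24) and without the 5% of cells with the highest doublet scores (1.46).

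Hypertrophic chondrocytes had lower levels of most antagonists than other chondrocytes, with 6 members lower and 1 higher (of 14355 genes 56.5% passed, 27.5% higher and 29.0% lower). Dkk3 (-2.57 ± 0.12, adjusted p = 9.87e-10), Dkk2 (-2.37 ± 0.39, adjusted p = 1.52e-04), Notum (-2.23 ± 0.34, adjusted p = 0.00393) and Wif1 (-2.17 ± 0.13, adjusted p = 1.63e-05) were lower by log2 differences beyond 2, and Sfrp2 (-1.52 ± 0.12, adjusted p = 1.08e-07) and Sfrp1 (-1.36 ± 0.06, adjusted p = 2.76e-10) by less. Frzb was higher, by 1.17 ± 0.19, adjusted p = 0.0049, and its lowest hypertrophic pup lay above its highest pup in other chondrocytes. Sfrp5 had -1.26 ± 0.40, adjusted p = 0.0565, and it passed without mutant pup 4 (-1.54 ± 0.38, adjusted p = 0.0393), without the highest doublet scores (-1.32 ± 0.38, adjusted p = 0.0435), with no upper limit on genes per cell (-1.33 ± 0.39, adjusted p = 0.0451) and in DESeq2 (-1.25 ± 0.38, adjusted p = 0.00317), while Sfrp4 had 0.15 ± 0.34. In hypertrophic cells Dkk3, Wif1, Sfrp2 (9.64 against 22.1 CPM) and Dkk2 (0.597 against 3.00 CPM) were below the leukocyte level and Sfrp1 near it, and Dkk2 was at that level in other chondrocytes too (3.35 CPM). Wif1 (230 CPM), Sfrp1 (82.0 CPM), Dkk3 (59.5 CPM) and Sfrp2 (30.3 CPM) in other chondrocytes lay between the leukocyte and erythroid levels. They are not shown to be the cells' own, so these differences are not shown to be a loss of expression in hypertrophic cells. Hypertrophic cells had a median of 26047 UMIs against 11827 in other chondrocytes, and the part of this difference in the result was not tested.

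All 9 members differed between fibroblasts and resting chondrocytes (5 higher, 4 lower; of 16138 genes 72.9% passed, 36.3% higher and 36.5% lower). Dkk2 (4.29 ± 0.07, adjusted p = 3.44e-10), Sfrp4 (4.08 ± 0.17, adjusted p = 1.33e-07) and Dkk3 (4.02 ± 0.14, adjusted p = 6.21e-07) had log2 differences of at least 4, and Sfrp2 (1.38 ± 0.23, adjusted p = 0.00215) and Wif1 (1.27 ± 0.18, adjusted p = 9.20e-04) were also higher in fibroblasts. Sfrp5 (-4.89 ± 0.32, adjusted p = 3.34e-05), Sfrp1 (-3.43 ± 0.09, adjusted p = 3.39e-08), Notum (-2.38 ± 0.13, adjusted p = 2.11e-06) and Frzb (-2.33 ± 0.20, adjusted p = 9.89e-05) were lower. Against articular chondrocytes, all 9 differed as well (4 higher, 5 lower; of 14607 genes 66.4% passed, 33.0% higher and 33.4% lower), and Wif1 changed side, lower in fibroblasts by -1.67 ± 0.11, adjusted p = 2.57e-05. Sfrp4 (4.16 ± 0.22), Dkk2 (3.37 ± 0.09), Sfrp2 (2.16 ± 0.19) and Dkk3 (1.55 ± 0.04) were higher in fibroblasts, and Notum (-3.37 ± 0.09), Sfrp5 (-2.35 ± 0.31), Sfrp1 (-2.06 ± 0.08) and Frzb (-1.21 ± 0.23) lower. Without the 5% of cells with the highest doublet scores, the differences from resting chondrocytes were 5.31 for Sfrp4, 5.07 for Dkk2 and 4.61 for Dkk3, and that of Sfrp4 from articular chondrocytes 4.99. With doubled class thresholds Sfrp5 (-3.64 and -1.16) and Notum (-1.56 from resting chondrocytes) differed by less. The 2 comparisons share the fibroblast sums, and in fibroblasts Sfrp5, Sfrp1 and Notum were at the level of leukocytes and Wif1 at that of erythroid cells.

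Superficial Prg4-high cells, which have Prg4 without the Col2a1 level of a chondrocyte, were compared with articular chondrocytes for the 8 members that passed the filter on low counts, and 6 differed (2 higher, 4 lower; of 12992 genes 40.8% passed, 21.0% higher and 19.9% lower). Dkk2 (2.37 ± 0.28, adjusted p = 1.85e-04) and Dkk3 (1.09 ± 0.05, adjusted p = 6.18e-13) were higher in superficial cells. Sfrp5 (-2.44 ± 0.21, adjusted p = 7.59e-08), Sfrp1 (-1.51 ± 0.08, adjusted p = 3.19e-10), Frzb (-0.79 ± 0.07, adjusted p = 5.24e-08) and Wif1 (-0.65 ± 0.05, adjusted p = 1.07e-09) were lower, Wif1 by the smallest log2 difference of the 6, and Sfrp5 had -1.35 with doubled class thresholds. Sfrp2 had -0.13 ± 0.08 (adjusted p = 0.193). Notum had -0.49 ± 0.18, adjusted p = 0.0768, and it passed without mutant pup 4 (-0.60 ± 0.15, adjusted p = 0.0209), without mutant pup 5 (-0.61 ± 0.15, adjusted p = 0.0179), with no filter on low counts (-0.54 ± 0.09, adjusted p = 1.14e-05) and in DESeq2 (-0.48 ± 0.14, adjusted p = 0.00321). Sfrp4 was left out here for its low counts.

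The levels moved with the marker genes within the classes and not only at the thresholds. Resting, articular and other chondrocytes were pooled and binned by the Prg4 level of each cell, from no Prg4 UMI through 5 bins with edges at 500, 2000, 8000 and 20000 CPM. Wif1 rose from bin to bin, at 121, 220.0, 710.3, 1256, 1792 and 2469 CPM (means of 5 pups), and Dkk3 did so from 33.3 ± 7.98 to 306 ± 34.2 CPM. Sfrp5 fell from 128 ± 50.3 to 5.44 ± 3.46 CPM. Sfrp1 and Frzb had their highest means between 500 and 2000 CPM of Prg4, at 247 ± 40.0 and 243 ± 17.7 CPM, and their lowest above 20000 CPM, at 55.1 ± 13.6 and 63.9 ± 8.28 CPM. Notum was between 33.6 ± 11.7 CPM in cells with no Prg4 UMI and 60.6 ± 11.9 CPM in the top bin, with no further rise above 500 CPM of Prg4. The step in Wif1 between the bins below and above 500 CPM lies under the threshold of 2000 CPM, so cells called resting or other chondrocytes included cells with some Prg4 and more Wif1. Median depth was 9565 UMIs in cells with no Prg4 UMI, 9939 in the next bin and 5440.5 in the top bin. Finding no Prg4 UMI itself depends on depth, and the part of depth was not tested.

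**Figure D3:**
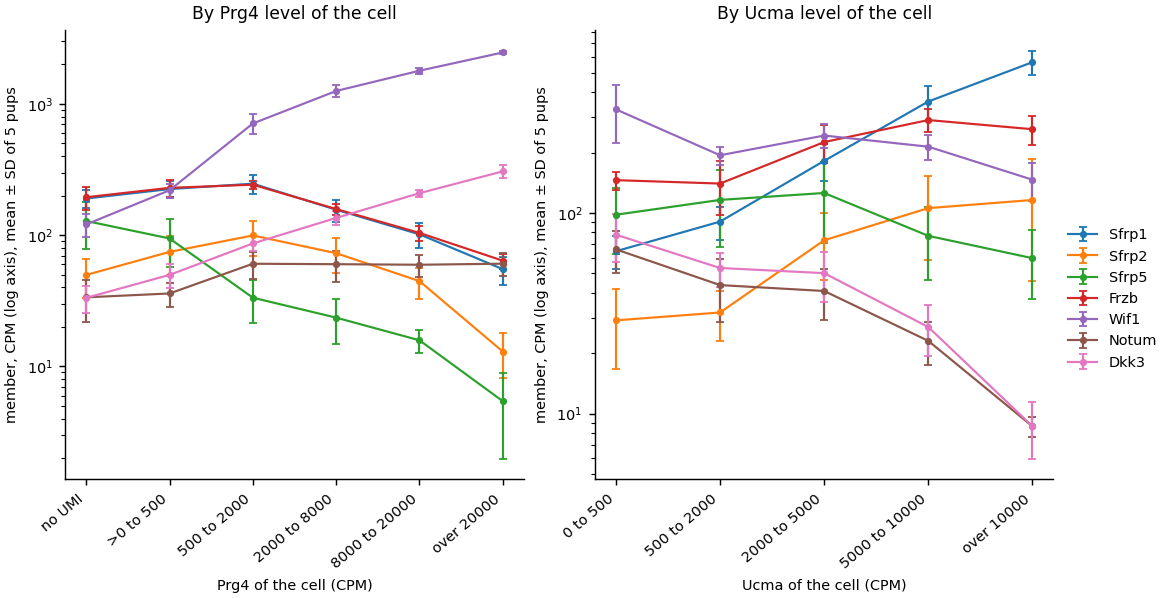
Left, members by the Prg4 level of the cell in resting, articular and other chondrocytes; right, by the Ucma level in resting and other chondrocytes. Points are means of the CPM of 5 pups on a log axis and bars their SD; Wif1 runs from 121 to 2469 CPM along Prg4, and Sfrp1 from 64.5 to 565 CPM along Ucma.

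Along Ucma, in resting and other chondrocytes, the order of the genes was different. Sfrp1 rose over 5 bins with edges at 500, 2000, 5000 and 10000 CPM of Ucma, at 64.5, 90.6, 182, 359.6 and 565 CPM, and Sfrp2 from 29.2 ± 12.5 to 116 ± 70.5 CPM. Frzb was at 146 ± 15.2 CPM in the lowest bin and at 291 ± 38.1 CPM between 5000 and 10000 CPM of Ucma. Notum fell from 65.9 ± 15.6 to 8.65 ± 0.999 CPM and Dkk3 from 78.0 ± 21.1 to 8.66 ± 2.71 CPM, so both were lowest where Sfrp1 was highest. Wif1 was highest in the lowest Ucma bin, at 329 ± 105 CPM, and lowest in the top bin, at 147 ± 31.3 CPM. Sfrp5 was highest between 2000 and 5000 CPM of Ucma, at 126 ± 54.7 CPM, and lowest in the top bin, at 59.6 ± 22.4 CPM. Of the resting and other chondrocytes, 20.1% had a Ucma level within 1.5-fold of the threshold, and whether the 2 classes are separate cell types was not tested. In every Ucma bin the means of Dkk3, Sfrp2 and Wif1 lay below their erythroid means (143, 138 and 496 CPM). These 3 trends are therefore not shown to be the cells' own, and Dkk3 ended below leukocytes (29.5 CPM). Median depth was 12497 UMIs between 500 and 2000 CPM of Ucma and 7564 in the top bin, and the part of depth was not tested.

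Fibroblasts were divided at 300 CPM of Tnmd, a tendon and ligament gene, into 12209 cells below and 12525 cells at or above it. The cells below held more Sfrp4 (26.8 ± 16.8 against 3.14 ± 3.10 CPM), Sfrp1 (39.0 ± 11.2 against 14.5 ± 1.88 CPM) and Dkk2 (42.4 ± 32.6 against 23.9 ± 13.3 CPM). The Tnmd-rich cells held more Wif1 (595 ± 74.3 against 424 ± 113 CPM), Dkk3 (609 ± 43.7 against 488 ± 35.0 CPM) and Sfrp2 (244 ± 61.4 against 189 ± 85.2 CPM). These values are descriptions, with no test.

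The share of cells with a UMI of a member was compared after each cell was thinned to 3000 UMIs. This left out as too shallow 180 of 22308 resting and 427 of 13695 articular chondrocytes, 282 of 3041 superficial cells, 889 of 24734 fibroblasts and 89 of 1565 leukocytes. Leukocytes again give the lower background, while erythroid cells were not thinned. Wif1 was found in 90.4% ± 2.28 of articular chondrocytes (mean ± SD of 5 pups; 95.2% without thinning), 74.9% ± 2.81 of superficial cells and 48.2% ± 6.62 of fibroblasts, against 7.58% ± 0.941 of leukocytes. By CPM, however, Wif1 in fibroblasts was at the level of erythroid cells, the higher background (511 ± 93.6 against 496 ± 149 CPM). Sfrp1 was found in 51.1% ± 4.95 of resting chondrocytes (76.7% without thinning) against 3.12% ± 0.786 of leukocytes, and Frzb in 41.4% ± 2.93 of resting and 44.6% ± 3.95 of hypertrophic chondrocytes against 2.31% ± 0.814. Dkk3 was found in 71.3% ± 1.78 of fibroblasts against 4.78% ± 1.45 of leukocytes. The remaining members were found in fewer cells of the thinned class with the highest share: Sfrp2 in 25.4% ± 4.62 and Dkk2 in 6.57% ± 3.20 of fibroblasts, Sfrp5 in 16.1% ± 4.72 and Notum in 13.4% ± 3.21 of other chondrocytes and Sfrp4 in 6.65% ± 6.03 of osteoblast lineage cells. By level, the leading class was endothelial cells for Dkk2 and articular chondrocytes for Notum. In fibroblasts Sfrp5 (0.720%) and Notum (1.40%), and in chondrocytes of the resting and articular classes Dkk2 (0.425% and 0.690%), lay at or below the share in leukocytes (0.992%, 1.65% and 0.776%) and are read as background. The median depth was 8775 UMIs in resting and 6285 in articular chondrocytes, 6373 in fibroblasts and 6765 in leukocytes.

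In 4 of 7 skeletal classes most cells held UMIs of more than 1 member. At 3000 UMIs, 65.6% ± 3.09 of articular chondrocytes, 63.6% ± 2.30 of superficial cells, 58.3% ± 4.28 of fibroblasts and 54.7% ± 5.73 of resting chondrocytes had UMIs of at least 2 members. The share was 43.3% ± 3.05 in other and 16.8% ± 2.85 in hypertrophic chondrocytes and 30.7% ± 7.62 in osteoblast lineage cells. In leukocytes, the lower background, 5.28% ± 1.21 had at least 2 and 82.6% ± 1.07 had none, and erythroid cells were not counted this way. The counts include members not shown to be the cells' own, such as Wif1 in fibroblasts and Wif1 and Sfrp2 in resting chondrocytes. How many cells express more than 1 member themselves was therefore not shown.

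The genes whose levels were most like each member were ranked by Pearson's r of log2(CPM + 5) over 50 sums (10 classes in 5 pups) among 6331 genes whose mean reached 20 CPM. The sums share libraries and the classes recur in each pup, so r is a description. Dkk3 was closest to Mxra8 (r = 0.94), Col3a1 (r = 0.94) and Fbln1 (r = 0.93); Col3a1 and Fbln1 encode matrix proteins of connective tissue. Dkk2 was closest to Fbln5 (r = 0.92), Sntb2 (r = 0.90) and Meox1 (r = 0.89), and Frzb to Col11a1 (r = 0.92), Bcat1 (r = 0.91) and Sec22b (r = 0.90), the first a cartilage collagen. Wif1 was closest to Fgfr2 (r = 0.91), Pcsk5 (r = 0.87) and Col12a1 (r = 0.87), Sfrp5 to A2m (r = 0.91), H1f2 (r = 0.89) and Epyc (r = 0.88) and Sfrp1 to Phyh (r = 0.86), Ppp1r3c (r = 0.85) and Map7d3 (r = 0.85). The leading genes were Lox (r = 0.86), Tmem119 (r = 0.84) and Robo2 (r = 0.84) for Sfrp4, Ntrk2 (r = 0.85), Mt2 (r = 0.81) and Clec3b (r = 0.78) for Sfrp2 and Itga10 (r = 0.78), Slc30a5 (r = 0.77) and Lrrc41 (r = 0.76) for Notum, whose values were the lowest. Between members, r was highest for Wif1 and Dkk3 (0.75) and for Sfrp1 and Sfrp5 (0.66) and lowest for Frzb and Dkk2 (-0.55).

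A list of 63 further Wnt pathway genes held 11 other antagonists, some of them secreted and some, such as Trabd2b, Apcdd1 and the Shisa proteins, acting at a membrane or inside the cell. Dkk1 and Sost, inhibitors that act on Lrp5 and Lrp6 in bone, were found in osteoblast lineage cells at 85.8 ± 51.0 and 43.8 ± 48.7 CPM, and at most at 0.625 and 0.0864 CPM in the chondrocyte classes. Igfbp4, an IGF-binding protein that can also inhibit Wnt signalling, was at 836 ± 126 CPM in fibroblasts and 82.6 ± 20.7 CPM in resting chondrocytes, and Trabd2b (Tiki2), a membrane-bound Wnt protease, at 214 ± 24.0 CPM in superficial cells and 179 ± 15.1 CPM in articular chondrocytes. Shisa3, which holds back Frizzled and FGF receptors, was at 18.2 ± 1.76 CPM in resting and 2.25 ± 0.524 CPM in other chondrocytes. Shisa2 was at 83.3 ± 9.85 CPM in articular chondrocytes, Apcdd1 at 12.7 ± 1.62 CPM and Sostdc1 at 4.49 ± 1.13 CPM in resting chondrocytes. Dkkl1 and Draxin were at most at 1.26 and 1.75 CPM in the chondrocyte classes, and Dkk4 at most at 0.0199 CPM.

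Of the 63 listed genes, 43 were tested between articular and resting chondrocytes, and 20 were higher and 17 lower in articular cells, where 26.8% of all genes tested were higher and 28.2% lower, with a median log2 difference of 0.13 beside -0.03 over all genes tested. Receptors were 7 higher and 4 lower of 14, ligands 3 higher and 5 lower of 9, and response genes 3 higher and 2 lower of 6. Lrp5, the co-receptor, was at 88.4 ± 10.4 CPM in articular and 49.8 ± 6.56 CPM in resting chondrocytes (log2 difference 0.81 ± 0.04, adjusted p = 3.35e-08), and Lef1, a TCF/LEF factor that is also a response gene, at 17.1 ± 2.83 and 59.9 ± 10.7 CPM (-1.83 ± 0.05, adjusted p = 2.46e-10). Axin2, the usual readout of the pathway, was at 7.16 ± 1.07 CPM in articular and 3.34 ± 0.458 CPM in resting chondrocytes (1.07 ± 0.09, adjusted p = 1.15e-06). Between hypertrophic and other chondrocytes, 6 of 7 ligands were higher and none lower, 12 of 14 receptors were lower and 1 higher, and 3 of 8 other antagonists were higher and 5 lower. Response genes were 1 higher and 3 lower of 6, where 27.5% of all genes tested were higher and 29.0% lower. These shares were not tested against each other. Wnt5b (159 ± 15.4 against 63.1 ± 8.30 CPM; 1.46 ± 0.05, adjusted p = 2.80e-11) and Wnt4 (117 ± 20.2 against 34.4 ± 9.07 CPM; 1.90 ± 0.12, adjusted p = 6.78e-06) were among these ligands. Lrp5, Lef1, Axin2, Wnt5b and Wnt4 were named after their values were seen.

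The mutant pups were compared with the WT pups within resting, articular and other chondrocytes and fibroblasts. By Xist and the Y-linked transcript Ddx3y, both WT pups and mutant pup 5 were male, and mutant pups 3 and 4 were female. The WT libraries were also deeper, with medians of 8521 and 9261 UMIs per cell against 6000 to 7016. Genotype, sex and depth therefore cannot be told apart in these differences. No member passed an adjusted p of 0.05 in any of the 4 classes, and no gene did (0% of 17125, 14310, 16233 and 15918 genes tested in that order; edgeR), while 1101, 784, 888 and 902 genes had an unadjusted p under 0.05 and DESeq2 called 39, 3, 20 and 27. The numbers of genes called moved with single pups, although leaving out a WT pup leaves 1 WT library, which is then assumed to vary like the mutant libraries: without WT pup 2, edgeR called 34, 15, 19 and 23 genes in the 4 classes, without mutant pup 5 it called 5, 6, 5 and 5, without WT pup 1 it called 4, 1, 4 and 0, and without mutant pup 4 it called 1 gene in other chondrocytes. None of the genes called without a pup was a member. With 2 against 3 pups, the log2 differences of the members ran from -0.66 to 0.49 in resting, -0.90 to 0.40 in articular and -0.44 to 0.79 in other chondrocytes and from -0.80 to 0.76 in fibroblasts, and they ran on either side of 0 in each class.

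Notum was the member with the most regular difference. In other chondrocytes it was at 34.9 and 35.7 CPM in the WT pups and 65.9, 55.7 and 56.3 CPM in the mutant pups. Each mutant pup lay above both WT pups, and the log2 difference was 0.79 ± 0.10 (95% interval 0.56 to 1.02; unadjusted p = 3.07e-05), with an adjusted p of 0.498 over 16233 genes. Notum passed in DESeq2 (0.80 ± 0.13, adjusted p = 2.98e-06) and in edgeR without a filter on low counts (0.79 ± 0.12, adjusted p = 1.43e-07), so that its call depends on the tool and the filter, and in the latter fit, which called 199 of 26919 genes, Sfrp5 passed too (-0.44 ± 0.12, adjusted p = 0.0283). The difference was 0.71 to 0.83 when each pup was left out in turn, with none of these passing, and it was 0.70 ± 0.13, adjusted p = 0.991, in the 2 WT pups and mutant pup 5, which have the Y-linked transcript Ddx3y, a fit whose error comes from the 2 WT pups alone. Non-overlap of the pups is itself common, at 22.5% of genes tested in this class, and 1 of the 9 members showed it.

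In the other classes Notum was also higher on average in the mutant pups, by 0.49 ± 0.19 in resting chondrocytes (unadjusted p = 0.0348, adjusted p = 0.762), 0.40 ± 0.17 in articular chondrocytes (unadjusted p = 0.0427, adjusted p = 0.835) and 0.76 ± 0.24 in fibroblasts (unadjusted p = 0.0144, adjusted p = 0.831). When each pup was left out in turn these differences ran from 0.26 (without WT pup 1) to 0.75 (without WT pup 2) in resting chondrocytes, from 0.23 (without mutant pup 5, and likewise without WT pup 1) to 0.59 (without WT pup 2) in articular chondrocytes and from 0.54 (without mutant pup 5) to 0.95 (without mutant pup 4) in fibroblasts. The classes come from the same 5 pups and are not independent. In resting chondrocytes the pups overlapped, at 20.2, 29.8, 40.7, 27.5 and 30.9 CPM in pup order, and in articular chondrocytes WT pup 2 (60.8 CPM) lay above mutant pup 4 (55.1 CPM). Leukocytes, the background, had 3.35, 3.57, 7.23, 7.56 and 11.5 CPM, with the mutant pups again above the WT pups, and the fibroblast values of Notum were at that background.

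**Figure D4:**
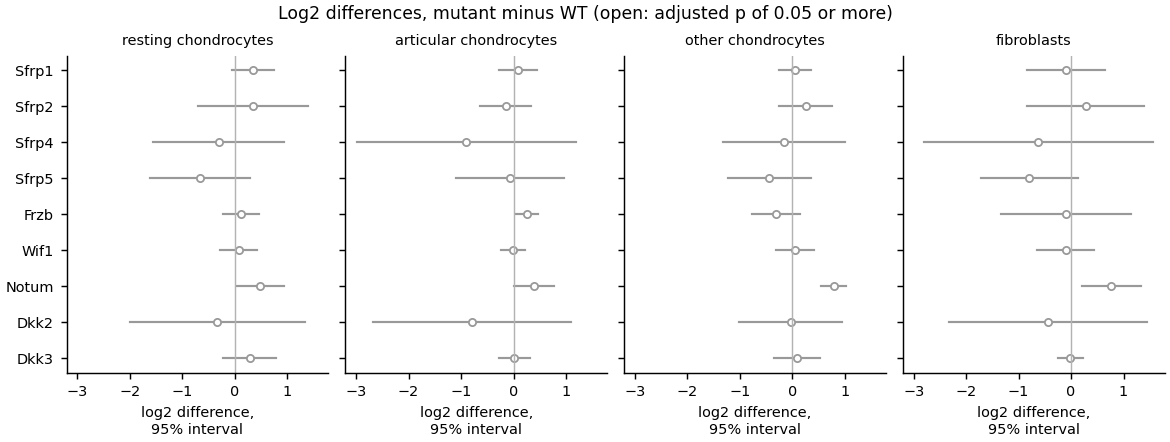
Points are log2 differences, mutant minus WT (3 against 2 pups), in 4 cell classes and bars their 95% intervals from edgeR. All points are open because no adjusted p was under 0.05; Notum lies to the right of 0 in each of the 4 classes, from 0.40 to 0.79.

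Frzb did not overlap between genotypes in articular chondrocytes (19.2% of genes tested there did not), with 104 and 117 CPM in the WT pups and 131, 120.3 and 128 CPM in the mutant pups, a log2 difference of 0.25 ± 0.09 (unadjusted p = 0.0235, adjusted p = 0.835). In fibroblasts, where 24.3% of genes tested did not overlap, Notum, Sfrp5 and Dkk3 did not. Dkk3 in fibroblasts was lower in each mutant pup by CPM but had a log2 difference of -0.02 ± 0.10 after TMM normalization (adjusted p = 0.981), and Sfrp5 had -0.80 ± 0.38 (adjusted p = 0.831) at background level, from -1.26 without WT pup 2 to -0.13 without WT pup 1. In resting chondrocytes, where 25.4% of genes did not overlap, all 9 members did. Several intervals were wide: that of Dkk2 was -2.00 to 1.34 in resting, -2.67 to 1.10 in articular and -1.01 to 0.95 in other chondrocytes. That of Sfrp4 was -1.55 to 0.94 in resting and -2.98 to 1.18 in articular chondrocytes and -2.80 to 1.56 in fibroblasts. In fibroblasts that of Sfrp2 was -0.84 to 1.40 and that of Frzb -1.34 to 1.14. The interval of Wif1 in articular chondrocytes, -0.24 to 0.21, excludes a 2-fold change in either direction.

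The effect of the genotype was also compared between articular and resting chondrocytes, by an interaction term with the pup as a block. No gene of 16429 passed (0%; 521 had an unadjusted p under 0.05, and DESeq2 called 0), and the members had interaction terms from -0.44 to 0.60. Without the filter on low counts, Sfrp5 (0.61 ± 0.12, adjusted p = 2.20e-04) and Sfrp2 (-0.43 ± 0.10, adjusted p = 0.018) passed, a log2 difference of the mutant effect in articular over that in resting cells, among 97 of 28117 genes called in that fit. Of the 63 further pathway genes, 0 passed between genotypes in any of the 4 classes, with 41 to 47 tested.

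The shares of cells in 6 classes were also set side by side, in a design too small to pass a threshold of 0.05. Resting chondrocytes were 25.2% ± 4.82 of cells in WT pups and 29.2% ± 9.27 in mutant pups (SD; exact 2-sided permutation test, p = 0.6, n = 2 and 3), and articular chondrocytes 17.1% ± 2.97 and 16.7% ± 3.16 (exact permutation test, p = 0.8). The smallest p such a test can give with 2 against 3 pups is 0.1. The difference ran from -0.186 to 9.01 percentage points for resting chondrocytes when each pup was left out in turn, the lowest without mutant pup 5, and from -2.54 to 1.66 points for articular chondrocytes, the highest without WT pup 1.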

How the data were processed

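Single-cell RNA-seq libraries of 5 pups were used. The authors processed reads with the manufacturer's BD Rhapsody pipeline and deposited raw UMI counts per gene and cell barcode, 117746735 to 183322632 UMIs per pup; the submitters' processing notes name mm10, and the aligner version is not given in the sources used here. Cells with 200 to 6000 genes and at most 10% mitochondrial UMIs were kept, as in the study, and cells were placed by marker thresholds in place of the study's clusters, since no cell annotation was used here. Scrublet called 0 doublets, for a reason that was not examined, and doublets are taken to remain among the cells. UMIs were summed per class and pup and tested with edgeR 4.0.16 (TMM, filterByExpr, robust quasi-likelihood F-test, Benjamini-Hochberg threshold 0.05), with the pup as a block between classes. DESeq2 1.42.0, RLE scaling, no filter, doubled class thresholds, removal of the top 5% of doublet scores, no upper gene limit and leaving out each pup were alternatives, and the test script was checked on simulated data. The pups are separate animals, labelled 1 to 5. The named genes are the 9 members, and for likeness the 3 genes with the highest r; other secreted antagonists were named from a list, and 5 further Wnt genes after their values were seen. The members and the gene lists were chosen with earlier results of these data known. Depth limits precision: counts at or under the leukocyte level are read as background. Levels between those of leukocytes and erythroid cells, or overlapping with those of erythroid cells, are not shown to be the cells' own.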

Additional observations from a re-analysis of the deposited data

Results flagged for a closer look

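A signal outside the classes compared was that of Sfrp1 in Schwann cells, a group of 86 cells that entered no comparison. Sfrp1 stood there at 942 CPM (mean of 5 pups, 511 UMIs in all), with 977, 918, 1058, 1267 and 491 CPM in pup order, against 206 to 352 CPM in resting chondrocytes, the leading class of those compared. The Schwann class held 5 to 47 cells per pup, and the difference was not tested. For each of the 9 members, the CPM difference between 2 classes was also taken within each pup, for the pairs of classes compared. In 0 of 54 such member contrasts did this difference have one sign in all WT pups and the other sign in all mutant pups. Groups of 2 and 3 pups were too small to examine for single outlying values.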

How the results depend on the processing

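Of 582 recomputed member differences between classes, 560 kept their direction and their side of the threshold, and of 84 between genotypes 80 did; these 84 belong to the 7 of 36 member differences between genotypes that had an unadjusted p under 0.05 or no overlap, and the others were not summarized this way. Between genotypes the numbers of genes called, 0 in each of resting, articular and other chondrocytes and fibroblasts, became 39, 3, 20 and 27 in DESeq2, 39, 54, 199 and 7 with no filter on low counts, and 3, 1, 1 and 0 in the pups with Ddx3y, a comparison added after the data were seen. Leaving out a WT pup, or 2 mutant pups, leaves an arm of 1 library whose spread is assumed to be that of the other arm. The numbers ran from 0 to 34, 0 to 15, 0 to 19 and 0 to 23 when each pup was left out. The members called in other chondrocytes became 1 in DESeq2 (Notum) and 2 without the filter (Notum and Sfrp5). For the interaction, the 0 genes called became 97 and the 0 members 2 without the filter, 1 gene with no upper limit on genes per cell, 10 genes in the pups with Ddx3y, and 0 to 1 gene when each pup was left out. With doubled class thresholds Sfrp4 turned to 0.0677 between articular and resting chondrocytes and Sfrp2 to 0.10 between superficial and articular cells; neither passed the test in the main comparison. Among the differences between classes and these 7, those that changed sign with the pup left out were Dkk3 between genotypes in fibroblasts (-0.0796 to 0.0489), Sfrp4 between articular and resting (-0.56 to 0.18), Sfrp5 (-0.0104 to 0.20) and Wif1 (-0.10 to 0.0455) between other and resting, and Sfrp4 between hypertrophic and other chondrocytes (-0.12 to 0.56), none of which passed. Differences in class share, mutant minus WT, ran in percentage points from -0.186 to 9.01 for resting, -2.54 to 1.66 for articular, -3.06 to 0.0570 for other and -0.205 to 0.708 for hypertrophic chondrocytes, -0.909 to 0.720 for superficial cells and -1.50 to 6.32 for fibroblasts when each pup was left out. The causes were not tested. Thinning to 1500 UMIs or none in place of 3000 moved 95 of 108 shares of cells with a UMI, which is fixed by the lower or higher depth. Scrublet called no doublets, so that alternative left the cells as they were; removal of the highest doublet scores was added after the data were seen. Between genotypes no pairing was possible because the WT and mutant pups are separate animals. The class comparisons and the interaction were paired by pup. With 2 against 3 pups, and few UMIs for Sfrp4 and Dkk2 in chondrocytes, small differences between genotypes could not be detected.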
